A study of Mus musculus with 12 samples.

Results

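The guanylate-binding protein cluster on mouse chromosome 3 was described here through the RelA and Ikaros binding regions that were listed within it. Its members were the hotspots, regions enriched for sequence tags, with at least 1 bp in a window of 190 kb on mm9 chromosome 3, taken to hold Gbp2, Gbp3, Gbp5 and Gbp7. They numbered 48 of the 50940 hotspots deposited in 10 libraries.

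Binding was measured by chromatin immunoprecipitation and sequencing in bone-marrow-derived macrophages, primary cells grown from the marrow of C57BL/6J mice, before lipopolysaccharide (LPS, an outer membrane component of Gram-negative bacteria) and 3 and 8 h after it. The 3 series of libraries used were of RelA or Ikaros. RelA, a DNA-binding NF-kB subunit, had a series in wild-type cells and another in cells labelled Littermate control. Ikaros, the zinc finger protein encoded by Ikzf1, had a series in wild-type cells. Each series had 1 library at 0, 3 and 8 h, and 1 input library came from untreated wild-type cells. The labels give neither the LPS dose, the age of the mice nor the animals behind each library, and untreated input from littermate and Ikzf KO mice was not analysed here. Every group held 1 library, so no spread between replicates and no test between conditions can be given. The times are those of the labels. For 6 of the samples the deposited file carried another time in its name, in place of the labelled one for both wild-type 0 h libraries and beside it for the others, so every statement about time rests on the labels. The files hold binding and not expression, so the labelled cell type was not checked against marker genes.

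Guanylate-binding proteins are large GTPases that interferons induce strongly in macrophages. They gather on pathogen-containing vacuoles and on bacteria in the cytosol, and they promote inflammasome activation. Gbp2 is recruited to the vacuole of the parasite Toxoplasma, Gbp5 has been tied to assembly of the NLRP3 inflammasome, and Gbp7 to delivery of the phagocyte oxidase. LPS reaches such genes by NF-kB, which RelA carries to kappa B sites, and by interferon made in response, which acts through IRF and STAT factors. Ikaros binds sites with the core TGGGAA.

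The gene table at hand is of GRCm38.p6 and the hotspots are on mm9, so hotspots were not assigned to genes. In that table the family members follow each other along the chromosome as Gbp5, Gbp7, Gbp3, Gbp2b and Gbp2. RefSeq promoters were found for 4 of the 4 genes of the window, and the 250 bases before the start of each are shown so that the motifs of these factors can be read in them. Capitals mark each match, on either strand, to the kappa B motif or to GAAANNGAAA, a motif that IRF factors bind. The positions are in GRCm38.p6 and cannot be set against those of the hotspots.
Gbp5, GRCm38.p6 chr3:142496684-142496933, plus strand: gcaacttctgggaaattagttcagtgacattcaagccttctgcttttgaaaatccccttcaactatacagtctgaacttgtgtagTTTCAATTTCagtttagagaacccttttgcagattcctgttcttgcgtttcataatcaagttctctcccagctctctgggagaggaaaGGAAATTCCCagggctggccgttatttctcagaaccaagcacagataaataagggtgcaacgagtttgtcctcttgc
Gbp7, GRCm38.p6 chr3:142530086-142530335, plus strand: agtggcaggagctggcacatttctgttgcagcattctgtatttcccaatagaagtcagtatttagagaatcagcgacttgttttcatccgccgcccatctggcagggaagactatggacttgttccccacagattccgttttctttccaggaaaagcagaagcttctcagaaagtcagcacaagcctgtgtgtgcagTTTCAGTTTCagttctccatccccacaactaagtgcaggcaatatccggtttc
Gbp3, GRCm38.p6 chr3:142559794-142560043, plus strand: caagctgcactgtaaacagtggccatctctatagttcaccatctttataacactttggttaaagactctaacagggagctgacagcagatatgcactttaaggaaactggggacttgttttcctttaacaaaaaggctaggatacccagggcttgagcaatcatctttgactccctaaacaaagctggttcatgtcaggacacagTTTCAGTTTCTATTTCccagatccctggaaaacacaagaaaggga
Gbp2, GRCm38.p6 chr3:142620413-142620662, plus strand: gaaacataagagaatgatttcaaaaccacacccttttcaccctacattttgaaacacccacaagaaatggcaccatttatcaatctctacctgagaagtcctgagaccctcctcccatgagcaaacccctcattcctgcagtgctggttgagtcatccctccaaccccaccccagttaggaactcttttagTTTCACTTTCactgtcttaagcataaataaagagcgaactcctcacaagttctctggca
The IRF motif GAAANNGAAA lay in the promoter of 4 of the 4 genes, on the minus strand each time, against 2.98% of all 32851 RefSeq promoters cut to the same 250 bases. Its bases began 165 before the start in Gbp5, 53 in Gbp7, 59 in Gbp2 and, as overlapping matches, 45 and 39 in Gbp3. A kappa B motif was found in Gbp5 alone among the 4, from 77 to 68 bases before the start, and 7.25% of all promoters held one. The Ikaros core TGGGAA was found in 3 of the 4 (Gbp5, Gbp7 and Gbp3), against 21.6% of all promoters. In Gbp5 1 of its matches, from 72 to 67 bases before the start, overlapped the kappa B match. RefSeq gives Gbp3 a further start, whose 250 bases held none of the 3 motifs. A match says that the letters are there, not that a factor binds.

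Before LPS only 2 hotspots were listed in the window, both of littermate RelA, and 3 h after it both factors were listed across it. Wild-type RelA had no hotspot in the window at 0 h, 13 at 3 h and 3 at 8 h. Littermate RelA had 2, 7 and 3. Ikaros had none at 0 h, 12 at 3 h and 8 at 8 h. Input had none, and no member overlapped an input hotspot. In all 3 series the window held the most hotspots at 3 h. The lists themselves differed in length, with 47, 4972 and 1878 hotspots for wild-type RelA, 5805, 9999 and 5231 for littermate RelA and 853, 7109 and 13796 for Ikaros once those on input were removed. From 3 to 8 h the Ikaros list as a whole was longer, while the window held 12 and then 8 of its hotspots. A site that is not listed may hold signal below the threshold of its list. The wild-type 0 h lists were short: of 13890 tiles of 190 kb, 47 held any RelA hotspot and 722 any Ikaros hotspot. An absence from these 2 lists is thus the common state of the genome. The littermate 0 h list had a mean of 0.418 hotspots per tile, against the 2 in the window.

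**Figure D1:**
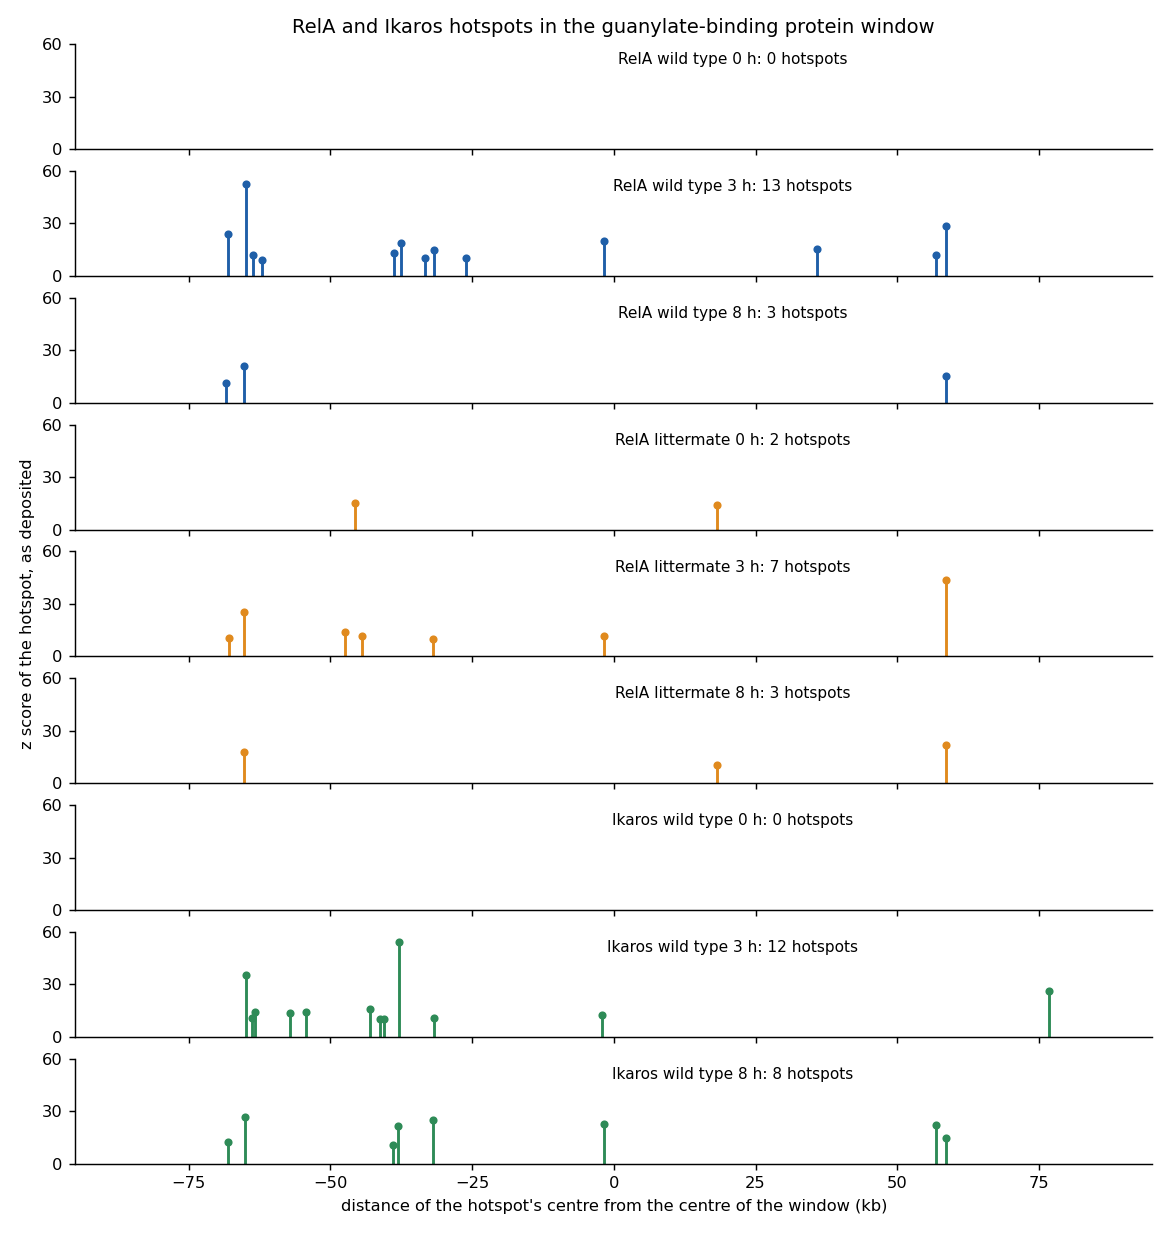
Hotspots of the 9 immunoprecipitated libraries in the window. Each line stands at a hotspot's centre, in kb from the centre of the window, and its height is the deposited z score; wild-type RelA had 13 hotspots at 3 h, littermate RelA 7 and Ikaros 12, and wild-type RelA and Ikaros had none at 0 h.

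Few stretches of the genome of this size were so densely listed. Of 13890 tiles of 190 kb laid along 21 chromosomes, 0.0216% (3 tiles) held at least 13 wild-type RelA hotspots at 3 h, and the mean was 0.359 per tile. For Ikaros at 3 h, 0.0432% (6 tiles) held at least 12. These tiles include the one that covers the window but for its last 10 kb. It was the only tile to reach both counts, 0.00720% of all. The littermate count at 3 h was reached by 0.252% of tiles. At 8 h the counts stood out less, with 0.994% of tiles reaching 3 hotspots of wild-type RelA, 2.05% reaching 3 of littermate RelA and 1.59% reaching 8 of Ikaros. The 2 littermate hotspots of 0 h were matched by 9.21% of tiles. These shares describe the lists and are not a test, since the window was picked with earlier results known. The nearest wild-type RelA hotspots of 3 h outside the window were 2581 kb before it and 108 kb after it, with z scores of 16.0 and 10.7. Those of Ikaros at 3 h were 72.4 and 108 kb away, with z scores of 19.2 and 14.5.

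**Figure D2:**
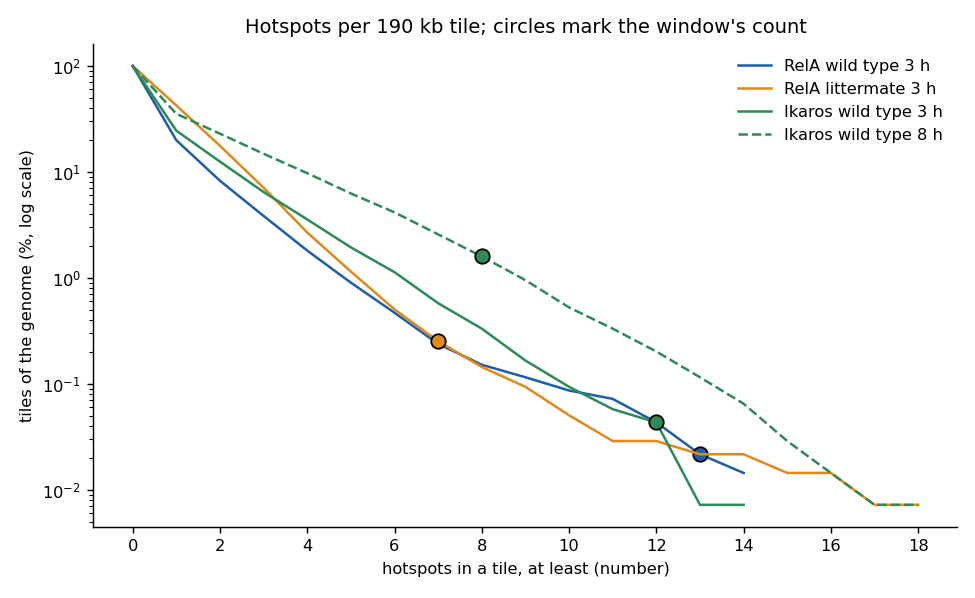
Share of 190 kb tiles of the genome (%, log scale) that hold at least a given number of hotspots, for 4 libraries. Circles mark the number in the window, from 1.59% of tiles for Ikaros at 8 h down to 0.0216% for wild-type RelA at 3 h.

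Most members of the 3 h libraries were denser and broader than the median of their list. The highest tag density of a hotspot, given in a unit whose scale is not stated and read here only within a library, had a median of 26.9 over the 13 wild-type RelA members of 3 h, against 18.5 in the whole list, and 12 of the 13 lay above that list median. For Ikaros the medians were 35.5 against 22.0 at 3 h, with 11 of 12 above, and 40.4 against 23.0 at 8 h, with 7 of 8 above. For littermate RelA at 3 h they were 17.6 against 4.11, with 6 of 7 above, in a list where 2091 of 9999 hotspots had a density of 10 or more. By z score fewer members of 3 h lay above the list median: 8 of 13 for wild-type RelA, 2 of 7 for littermate RelA and 7 of 12 for Ikaros. Median widths at 3 h were 705 bp against 538 bp for wild-type RelA, 575 against 326 for littermate RelA and 722 against 533 for Ikaros. At 3 h wild-type RelA hotspots covered 5.26% of the window and 0.107% of the genome, and Ikaros hotspots 6.34% and 0.154%.

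Members that overlapped each other were joined into 21 sites, numbered along the chromosome. Of these, 8 were listed in 2 or more libraries and 13 in 1. RelA was listed at 15 sites and Ikaros at 13, and 7 sites carried both, 8 RelA alone and 6 Ikaros alone. Sites 1 to 15 were crowded at the lower end of the window, with gaps of 0.368 to 5.85 kb between neighbours. The other 6 were spread out, with gaps of 16.9 to 23.5 kb apart from the 1.01 kb between sites 19 and 20.

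**Figure D3:**
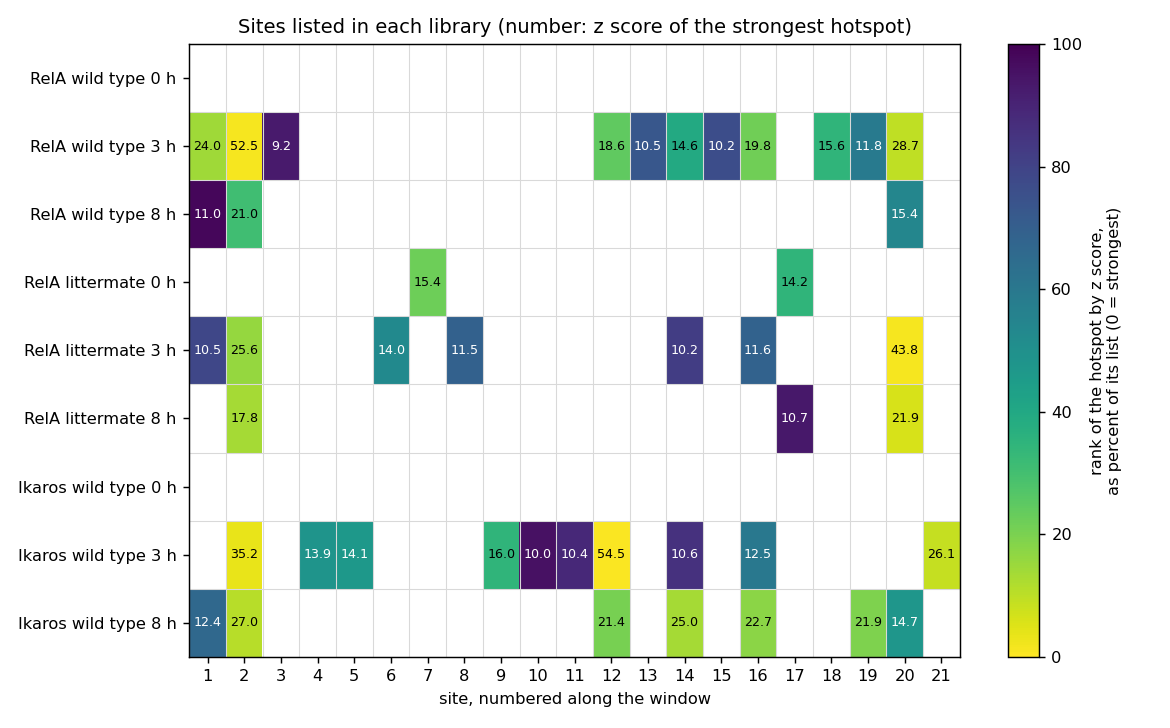
The 21 sites (columns, in chromosome order) in the 9 immunoprecipitated libraries (rows). A coloured cell is a listed site, the number in it is the z score of its strongest hotspot and the colour its rank by z score as percent of the list; site 2 is the only one listed in all 6 libraries made after LPS.

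Site 2, at 142159393 to 142162134, was the only site with both factors in all 6 libraries made after LPS. It held the strongest wild-type RelA hotspot of the window, at 142159405 to 142161024 at 3 h, with a z score of 52.5, a highest density of 97.0 and rank 76 of 4972. By highest density that hotspot ranked 18. At 8 h wild-type RelA had z 21.0 and density 43.9 there, rank 573 of 1878. Littermate RelA had z 25.6 and density 34.5 at 3 h (rank 1565 of 9999) and z 17.8 and density 30.1 at 8 h (rank 699 of 5231). Ikaros had z 35.2 and density 65.0 at 3 h, rank 231 of 7109, and z 27.0 and density 43.9 at 8 h, rank 1508 of 13796. At 3 h the site reached further to the right in the wild-type libraries, where RelA had a weaker hotspot at 142161072 to 142161700 and Ikaros had 2, at 142160933 to 142161325 (z 10.9) and 142161485 to 142162134 (z 14.3). None of these 3 was listed at 8 h.

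Site 20, at 142283142 to 142284017, was listed in all 4 RelA libraries made after LPS and for Ikaros at 8 h. Wild-type RelA had z 28.7 and density 61.7 at 3 h (rank 475 of 4972) and z 15.4 and density 30.2 at 8 h (rank 1015 of 1878). Littermate RelA had z 43.8 and density 69.4 at 3 h (rank 132 of 9999, and rank 23 by density) and z 21.9 and density 46.0 at 8 h (rank 324 of 5231). Ikaros was not listed there at 3 h and had z 14.7 and density 23.2 at 8 h, rank 6553 of 13796. Sites 2 and 20 were the 2 strongest RelA sites of the window in each of the 4 RelA libraries made after LPS, and their order differed between the series. In wild-type cells site 2 was the denser, 1.57 times site 20 at 3 h and 1.45 times at 8 h. In littermate cells site 20 was the denser, 2.01 times site 2 at 3 h and 1.53 times at 8 h. The z scores gave the same order in each of the 4 libraries. Genotype label, animals and library preparation cannot be told apart between the series, and no test of the difference is possible with 1 library each.

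**Figure D4:**
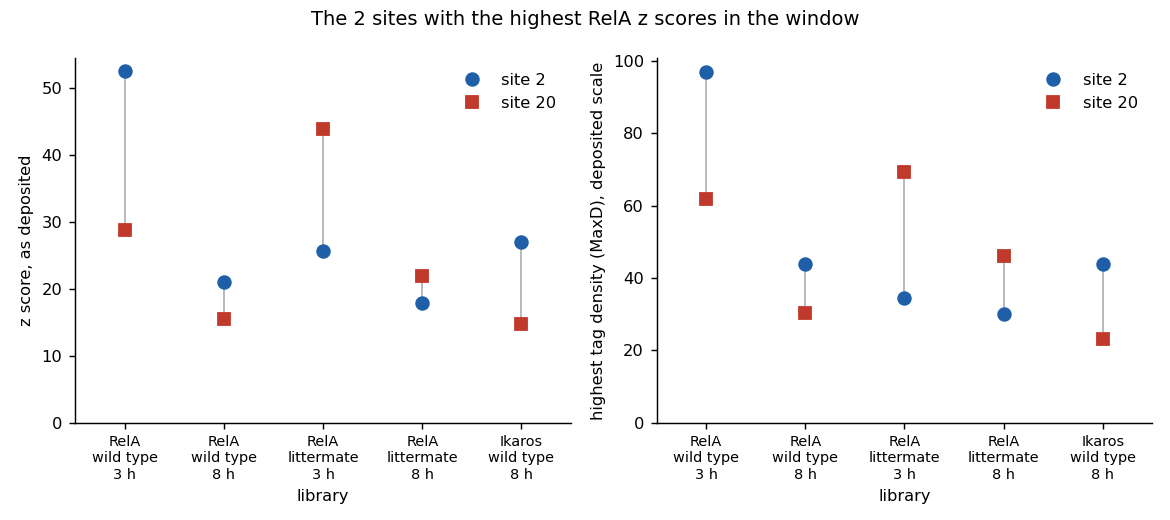
Z score (left) and highest tag density (right) of the strongest hotspot at site 2 and site 20 in the 5 libraries that list both. Site 2 lies above site 20 in the wild-type RelA and Ikaros libraries and below it in both littermate RelA libraries.

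A further 3 sites carried RelA at 3 h in both series. Site 1, at 142156572 to 142157448, lay 1.95 kb before site 2. Wild-type RelA had z 24.0 and density 44.0 there at 3 h and z 11.0 and density 19.4 at 8 h, littermate RelA z 10.5 and density 13.1 at 3 h, and Ikaros z 12.4 and density 19.2 at 8 h. The wild-type hotspots of the 2 times at site 1 overlapped only at their ends. That of 3 h lay at 142156652 to 142157448 (rank 716 of 4972). That of 8 h lay at 142156572 to 142156823 and was near the end of its list (rank 1848 of 1878). Site 14, at 142192798 to 142193620, had wild-type RelA with z 14.6 and density 26.8, littermate RelA with z 10.2 and density 17.6 and Ikaros with z 10.6 and density 30.2, all at 3 h. Ikaros had z 25.0 and density 49.7 there at 8 h. Site 16, at 142222557 to 142223886, had wild-type RelA with z 19.8 and density 35.6, littermate RelA with z 11.6 and density 23.2 and Ikaros with z 12.5 and density 41.1 at 3 h, and Ikaros with z 22.7 and density 51.9 at 8 h. At sites 14 and 16 RelA was not listed at 8 h in either series, while Ikaros was. Within its own list Ikaros stood higher at 8 h, rank 1849 of 13796 against 6105 of 7109 at site 14 and rank 2415 against 4272 at site 16, though ranks from lists of unlike length show no change.

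At 3 h Ikaros had its strongest hotspot of the window at site 12, and at 8 h at site 2. Site 12, at 142185645 to 142188510, was a single Ikaros hotspot of 2865 bp at 3 h, with z 54.5, density 93.0 and rank 55 of 7109, and it ranked 28 by width. Wild-type RelA had 2 hotspots within it at 3 h, with z 12.9 and density 26.9, and z 18.6 and density 35.5. Littermate RelA was not listed there at any time. At 8 h Ikaros had 2 narrower hotspots there, with z 10.8 and density 24.7, and z 21.4 and density 36.9, and RelA had none. Site 21, at 142300879 to 142302537, carried Ikaros alone and only at 3 h (z 26.1, density 43.0, rank 613 of 7109). Site 19, at 142281423 to 142282128, lay 1.01 kb before site 20 and was listed for wild-type RelA at 3 h (z 11.8, density 23.7) and for Ikaros at 8 h (z 21.9, density 44.8, rank 2693 of 13796).

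At each of the other sites wild-type RelA, Ikaros or littermate RelA was listed alone. Some of these sites had a higher z score than a site described above had in the same library. Wild-type RelA was listed alone, at 3 h, at 4 sites with z scores of 9.23 to 15.6 and densities of 16.9 to 36.7. Ikaros was listed alone, at 3 h, at 5 sites apart from site 21, with z scores of 10.0 to 16.0 and densities of 21.3 to 33.2. Those 5 lay between sites 3 and 12, and they included broad hotspots of 1241 and 1810 bp. Littermate RelA was listed alone at 4 sites, of which site 17, at 142243050 to 142243514, was listed at 0 h (z 14.2, density 5.69) and 8 h (z 10.7, density 3.96) and not at 3 h. All 5 littermate hotspots at these 4 sites had a highest density between 2.92 and 5.69. At 3 and 8 h these were below every other member of their own library, while the 0 h library had no other member. The littermate lists as a whole had medians of 4.11 to 4.56. Both littermate hotspots of 0 h were of this kind, so none of the sites shared with wild-type RelA was listed before LPS in either series.

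With an overlap of 1 bp or more, the RelA members of 3 h that were listed again at 8 h were those with the highest z scores. Of the 13 wild-type members of 3 h, 3 (23.1%) were listed again at 8 h, against 31.3% of the whole list, and they were the 3 with the highest z scores, 24.0 to 52.5. The 10 others had z scores of 9.23 to 19.8, and 3 of them were under 10.9, the lowest z score of the 8 h list. When the overlap had to cover at least 50% of both hotspots, 1 of the 13 (7.69%) was listed again, against 27.8% of the list, and 1 of the 3 members of 8 h had been listed before, against 73.7%. That pair was at site 20. In littermate cells 2 of 7 were listed again, against 14.4% of the list, with z scores of 25.6 and 43.8 against 10.2 to 14.0 for the 5 others. The littermate lists hold many hotspots of low density, and among hotspots with a highest density of 10 or more the shares were 40.0% of members and 40.8% of the list. All 3 wild-type members of 8 h had been listed at 3 h (83.9% of the list), as had 2 of the 3 littermate members (27.6%), or 2 of 2 against 83.1% of the list from a density of 10 upward. Of the 2 littermate members of 0 h, 1 was listed again at 8 h (9.46% of the list). These counts are small, and neighbouring hotspots are not independent.

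Most Ikaros members of 3 h were not listed at 8 h. Of the 12 members of 3 h, 4 (33.3%, exact 95% interval 9.92 to 65.1) overlapped an Ikaros hotspot of 8 h, against 82.1% of all 7109. The 8 not listed again had z scores of 10.0 to 26.1, all above the lowest z score of the 8 h list, 9.75, and densities of 21.3 to 43.0. Of the 8 members of 8 h, 5 had been listed at 3 h, against 42.2% of the list. The order turned with a reciprocal overlap of 50%, to 12.5% of members against 36.0% of the list, and in the upper 50% of each list by z score, to 33.3% against 41.9%. The 3 not listed at 3 h were at sites 1, 19 and 20. Each of these sites had wild-type RelA at 3 h.

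Ikaros of 8 h lay where wild-type RelA had been listed at 3 h. All 8 Ikaros members of 8 h overlapped a wild-type RelA hotspot of 3 h (exact 95% interval 63.1% to 100%), against 23.8% of the whole Ikaros list, while 2 of them overlapped RelA of 8 h (10.8% of the list). At 3 h 6 of the 12 Ikaros members overlapped RelA of the same time, against 37.1%. This order turned too, to 8.33% of members against 29.4% of the list with a reciprocal overlap of 50% and to 28.6% against 32.2% in the upper 50% by z score. Of the 13 wild-type members of 3 h, 6 (46.2%, interval 19.2 to 74.9) overlapped Ikaros of 3 h and 8 Ikaros of 8 h, against 54.0% and 66.5% of the list. With a reciprocal overlap of 50% the first share was 7.69%, against 42.1% of the list. At 8 h 2 of 3 did, against 80.5%. For littermate RelA, set against Ikaros of wild-type cells, 3 of 7 did at 3 h and 2 of 3 at 8 h, where the lists gave 12.6% and 15.8%. From a density of 10 upward it was 3 of 5 at 3 h, against 57.7% of the list, and 2 of 2 at 8 h, against 79.4%. The centres of the 8 overlapping pairs of wild-type RelA and Ikaros hotspots lay a median of 352 bp apart, between 52.0 and 914 bp, against 67.5 bp over both lists. Some hotspots of 3 h at sites 2 and 12 entered more than 1 pair, among them the Ikaros hotspot of 2865 bp, so the 8 pairs are not separate places. At 8 h the 2 pairs, at sites 2 and 20, lay 154 and 108 bp apart, against a median of 61.5 bp over both lists.

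Between the RelA series, 5 of the 13 wild-type members of 3 h were listed in littermate cells at 3 h, against 34.4% of the wild-type list. In the other direction 5 of the 7 littermate members were listed in wild-type cells, against 17.3% of the littermate list, or 5 of 5 against 78.1% from a density of 10 upward. The 2 exceptions, at sites 6 and 8, had densities of 2.92 and 4.81. At 8 h 2 of 3 members were shared in each direction, against 44.0% of the wild-type and 15.8% of the littermate list. From a density of 10 upward the littermate share was 2 of 2, against 80.1% of the list. All 5 sites with RelA in both series at 3 h carried Ikaros at 3 h, at 8 h or at both. No share over the lists was taken for that combination. In the whole wild-type RelA list of 3 h, 54.0% of hotspots overlapped Ikaros of 3 h and 66.5% Ikaros of 8 h, so such overlap is common.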

How the data were processed

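Libraries of RelA or Ikaros chromatin and of input were sequenced single-end, per the labels' protocols, and 10 of the 12 labelled samples were used. The submitters' processing notes name mm9 and CASAVA. How tags were aligned, which program called hotspots, at what threshold and whether input was subtracted is not given in the sources used here. Per the file headers, the authors deposited for each hotspot a z score, its p-value, and its tag density (highest and mean), a signal with no stated scale. Coordinates are printed as deposited, and width is end minus start. Reads per library are unknown, so depth cannot be given.

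The window was mm9 chr3:142130000-142320000. Hotspots on wild-type input hotspots were removed (no member was affected). Overlap meant 1 bp or more, and ranks are by z score within a list. Each list's share stands beside the members' count. The window, the members, the lists and the motifs searched were chosen with earlier results of these data, or the promoter sequences, in view. Every site listed in 2 or more libraries or with a hotspot in the upper 20% of its list was described by itself. The z score and highest density of its strongest hotspot are given for each library that lists it, and ranks for some. Tiles of 190 kb began at the first base of each chromosome, whose length was taken as the highest end coordinate in any file. Intervals are exact Clopper-Pearson, for counting error alone. They take neighbouring hotspots as independent, which they are not, and are no test against a list's share. Alternatives were a density floor, the upper 50% by z score, reciprocal overlap, other window edges, shifted tiles and other ranks. The planned distances to genes and the comparison with other GTPase genes needed an mm9 annotation and were not run. Overlap and tile counts were tested on simulated data and against bedtools 2.31.1. Computations used scipy 1.17.1, pandas 2.3.3, numpy 2.4.6 and matplotlib 3.10.9 under Python 3.11.15.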

Additional observations from a re-analysis of the deposited data

Results flagged for a closer look

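The order of the 2 strongest RelA sites of the window was opposite in the 2 RelA series in every library made after LPS. The z score of site 2 minus that of site 20 was 23.8 at 3 h and 5.55 at 8 h in wild-type cells, and -18.1 at 3 h and -4.07 at 8 h in littermate cells. The difference between the series was not tested, since each has 1 library per time, and genotype label, animals and library preparation cannot be told apart.

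At site 19 the listing of wild-type RelA and of Ikaros moved in opposite directions between 3 and 8 h. RelA was listed at 3 h, with z 11.8, and not at 8 h, when the lowest z score listed was 10.9. Ikaros was not listed at 3 h and had z 21.9 at 8 h. This difference was not tested either, and littermate RelA was listed there at no time. The lists as a whole changed the same way, from 4972 to 1878 hotspots for wild-type RelA and from 7109 to 13796 for Ikaros. Only 31.3% of wild-type RelA hotspots of 3 h were listed again at 8 h. Of Ikaros hotspots of 8 h, 42.2% had been listed at 3 h. Each change alone was thus common in the lists, and how many sites combined both was not counted.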

How the results depend on the processing

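No paired analysis was possible because each group has 1 library and these values come from no test; no library could be left out of a group. A share or rank counted as moved when it left the main exact 95% interval, and a count when it changed by over 1.5 times. Of 125 alternatives to 43 results, 27 gave a moved value and 98 did not. The intervals of the shares of members rest on few members and are wide, so a value that did not count as moved may still differ much. Those of best ranks are narrow and measure no spread of a best rank. Littermate RelA at 0 h counted as moved from 21.9% to 17.5% of its list. The 27 moved values thus come from unlike rules. Wild-type RelA members of 8 h listed before at 3 h went from 100% to 33.3% under reciprocal overlap without counting as moved. Joining hotspots only at 50% reciprocal overlap gave 30 sites in place of 21, which did not count either. With the upper 50% of each list by z score the window held 8 wild-type RelA hotspots at 3 h and 1 at 8 h, 2 littermate hotspots at 3 h and 7 Ikaros hotspots at 3 h. With a highest density of 10 or more it held 0 littermate hotspots at 0 h, and no share could then be given for them. With the upper 50%, shares of 1 or 2 members became 100% for wild-type and littermate RelA of 8 h with Ikaros (70.1% and 19.1% of the lists), wild-type 8 h in littermate (535 of 939 in the list), littermate 3 h in wild type (17.0%), and littermate 3 h and 8 h at the other time (16.1% and 30.9%), and 0% for littermate 0 h at 8 h (6.44%). With the floor, shares of 2 or 5 littermate members became 100% for 8 h with Ikaros (79.4%), 8 h at 3 h (83.1%), 8 h in wild type (80.1%) and 3 h in wild type (78.1%), so the lists lay nearer to the members than without it. Under a reciprocal overlap of at least 50%, wild-type RelA of 3 h with Ikaros of 3 h fell to 7.69% (42.1% of the list) and the reverse to 8.33% (29.4%), Ikaros of 3 h listed again at 8 h to 8.33% (69.9% of the list) and Ikaros of 8 h listed before to 12.5% (36.0%). The share of Ikaros 8 h members on wild-type RelA of 3 h was then 75.0%, against 18.5% of the list. By highest density the best rank in the window was at 0.362% of the list for wild-type RelA at 3 h (1.53% by z score), 14.5% at 8 h, 17.5%, 0.230% and 2.27% for littermate RelA at 0, 3 and 8 h, and 5.23% for Ikaros at 8 h. In the Ikaros 3 h list as deposited it was 1.24%. In alternatives chosen after seeing the data, 17 sites in place of 21 were found without the littermate libraries, and also 17 with the density floor.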

Other observations

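Z score and highest density ranked the members of the window differently. Of the 7 littermate RelA members of 3 h, 6 lay above the list median by highest density and 2 by z score. At site 16 that library's hotspot ranked 6860 of 9999 by z score, 599 by density and 85 by width, and at site 14 it ranked 8187 by z score and 1054 by density. For wild-type RelA at 3 h 12 of 13 members lay above the list median by density and 8 by z score, and for Ikaros at 3 h 11 of 12 and 7. How the z score was scaled is not stated, and the cause was not tested.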
